A study of Mus musculus with 16 samples.

Results

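The antisense transcripts Gm15441, Gm15622, B430119L08Rik, Gm10680 and Gm15998 were followed through the livers of mice that differed in diet and feeding state. They are 5 of the 46078 genes in the count table and 5 of its 2950 long noncoding genes that lie across a protein-coding gene on the opposite strand. They were chosen by the measured fold changes and adjusted p of these libraries, all 5 for a difference between diets and Gm15441 and Gm15998 also for a change with fasting, so their diet changes are described here without a test. All 5 passed the filter on low counts, as did 15075 genes in all and 519 of the antisense class. Gm15622 passed it through its control diet libraries alone.

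Male mice of the strain labelled C56B6/J, 8 weeks old when the diets began, were kept for 16 weeks on either a control diet, here CD, or a high-fat diet, here HFD, in which 60% of calories came from fat. Livers were taken from mice fed ad libitum or after a 16 h fast, which gave the groups CD fed, CD fast, HFD fed and HFD fast, each with 4 libraries. No genetic change or drug distinguished the groups. RNA-seq of polyadenylated RNA yielded 41364448 to 57583153 gene counts per library. Levels are given as CPM, a count divided by the scaled library total in units of 1000000, and a floor of 3 counts equals 0.0536 to 0.0767 CPM. Hepatocyte markers (Alb, Ttr, Cps1, Apob and Cyp3a11) summed to at least 69367 CPM in every library, and those of Kupffer cells, stellate cells, sinusoidal endothelium and erythroid cells to at most 402 CPM each. Some of these sums moved with the groups. Stellate markers were at 112 to 186 CPM in CD fast against 197 to 275 in HFD fast libraries. Hepatocyte markers were at 104442 to 132929 CPM in HFD fed against 69367 to 102117 in HFD fast libraries. Endothelial markers were at 177 to 200 CPM in CD fed against 135 to 175 in CD fast libraries. Erythroid markers were at 270 to 346 CPM in CD fed against 238 to 266 in HFD fed libraries. In whole liver, fewer cells of a type and less RNA per cell cannot be told apart.

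An antisense transcript is read from the DNA strand opposite to a known gene, here called its sense gene. Such RNAs can be independent noncoding transcripts with their own start site, splicing and poly(A) tail, and some act on the gene they overlap. Because both strands of such a locus can yield reads, the counts of an antisense gene are read here beside those of its sense gene. Secreted proteins and metabolic enzymes, which make up much of the mRNA of liver, are among these sense genes. Gm15441 is known as a liver transcript induced through PPARA, the nuclear receptor that turns on fatty acid oxidation in fasting. No function is assumed here for the others.

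The 5 loci differ in how much of the transcript is separate from the sense gene (all positions GRCm38, gene models GENCODE vM21). Gm15441 (ENSMUSG00000074398, chr3:96555765-96566801, minus strand) spans Txnip, which encodes an inhibitor of thioredoxin and of glucose uptake. Of its 1676 exonic bases 606 lie over Txnip exons and 1070 (63.8%) over none. Gm15622 (ENSMUSG00000085834, chr13:93625382-93628633, plus strand) lies wholly within Bhmt, the gene of betaine-homocysteine methyltransferase, with 187 bases over Bhmt exons and 1277 of 1464 (87.2%) over its introns. B430119L08Rik (ENSMUSG00000086432, chr12:103895897-103898784, plus strand) lies wholly within Serpina1c, one of the closely similar mouse genes of alpha-1-antitrypsin, with 429 of its 1994 bases over exons and 1565 (78.5%) over introns. Gm10680 (ENSMUSG00000074373, chr9:46242621-46243529, minus strand) runs from just beyond the 3′ end of Apoa4, an apolipoprotein of lipid-rich particles. Almost all of it, 632 of 702 bases, faces Apoa4 exons, and 70 (9.97%) do not. Gm15998 (ENSMUSG00000086389, chr3:89315439-89318907, plus strand) lies within Efna3, an ephrin ligand, with 344 of 1844 bases over exons and 1500 (81.3%) over introns.

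**Figure D1:**
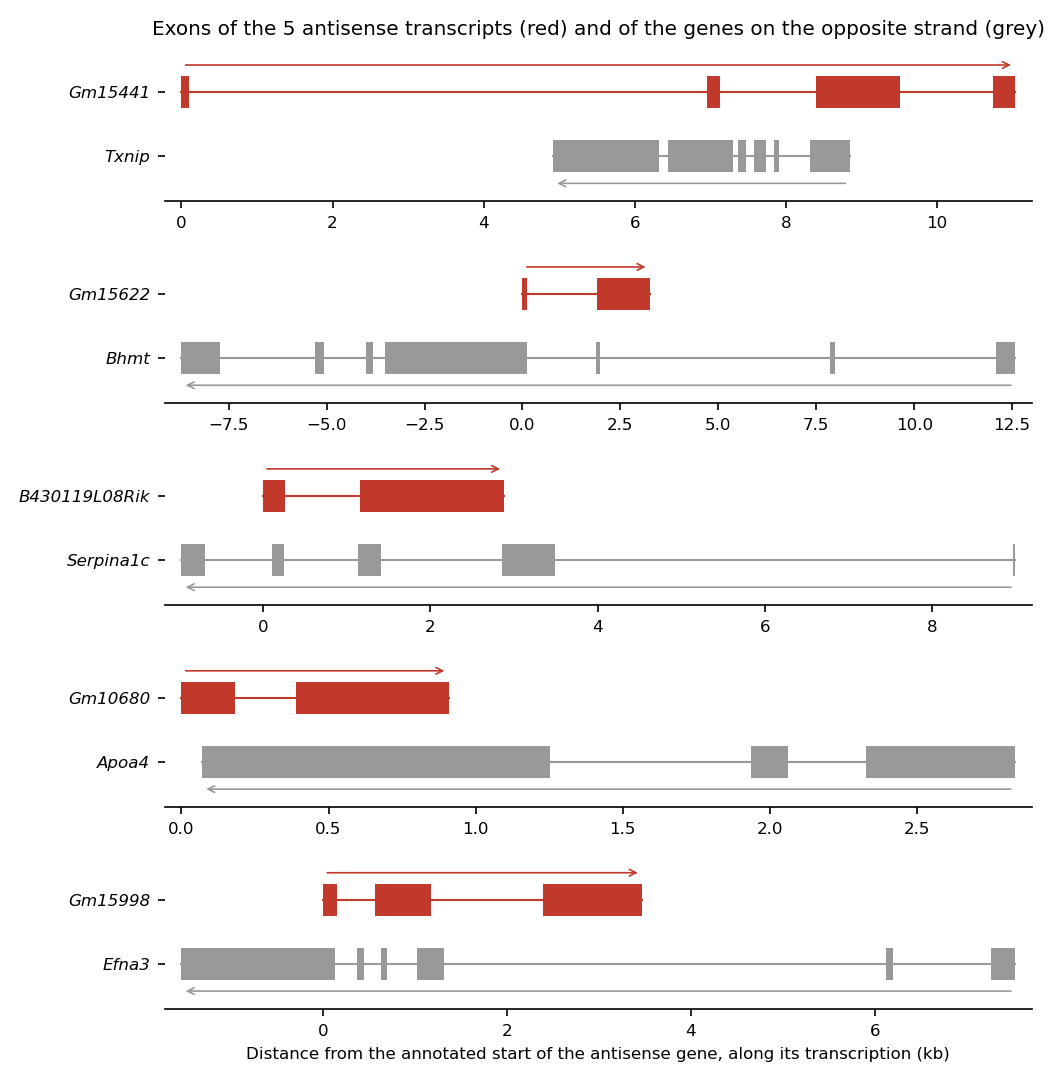
Exons (boxes) of each antisense transcript in red and of its sense gene in grey, against the distance in kb from the annotated start of the antisense gene; arrows give the direction of transcription. Gm15622, B430119L08Rik and Gm15998 lie inside their sense gene, Gm10680 faces an Apoa4 exon, and Gm15441 extends beyond both ends of Txnip.

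Sequences are shown where they tell an antisense transcript from its sense gene. Gm15441 has 2 annotated transcripts. The shorter one (ENSMUST00000098839, 659 bases, 3 exons) overlaps no Txnip exon, and its first exon of 60 bases starts 141 bases upstream of the Txnip start on the other strand, so that both are read outwards from one shared region. The 250 bases before the Txnip start are given on the plus strand from RefSeq (GRCm38.p6, chr3:96557707-96557956), with that first exon, which is transcribed from the complementary strand, in capitals. The last 60 bases of the same transcript (chr3:96555765-96555824, minus strand) carry the poly(A) signal AATAAA, shown in capitals, 21 bases before the end. This signal was within the last 50 bases of 29.3% of long noncoding and 31.0% of protein-coding transcripts, and of the 6 annotated transcripts of the 5 genes only this one held it there.
Txnip_upstream: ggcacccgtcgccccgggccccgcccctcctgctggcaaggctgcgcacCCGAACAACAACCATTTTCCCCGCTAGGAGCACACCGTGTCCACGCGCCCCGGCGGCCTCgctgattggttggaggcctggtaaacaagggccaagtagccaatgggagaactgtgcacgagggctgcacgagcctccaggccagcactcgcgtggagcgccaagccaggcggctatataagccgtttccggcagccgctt
Gm15441_end: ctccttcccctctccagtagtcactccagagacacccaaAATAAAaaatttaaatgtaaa

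The window from 250 bases before to 50 bases after the start was searched on both strands for the TATA box letters TATAAA, the CCAAT box, the nuclear receptor core AGGTCA, the E-box letters CACGTG and the forkhead core GTAAACA. In the Txnip window CCAAT stood 137 and 102 bases and GTAAACA 121 bases before the Txnip start, without overlap between them, and the other 3 motifs were not found. GTAAACA occurred in 3.65% and CCAAT in 37.4% of 32851 mouse promoter windows of that length. TATAAA occurred in 13.6%, AGGTCA in 16.3% and CACGTG in 7.15%. RefSeq windows matched 1 of the 5 antisense genes, Gm15998.

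The remaining transcripts are shown where their sequence differs from the complement of sense mRNA. For the 3 genes within the span of their sense gene this is the junction of exon 1 (capitals) and exon 2 (lower case) in the GENCODE transcript, on the plus strand, from chr13:93625468-93627315, chr12:103896137-103897090 and chr3:89315564-89316032, a join that arises only when the antisense RNA itself is spliced. Most of the printed bases of Gm15622 and B430119L08Rik face exons of the sense gene, so there only the join is particular to the antisense transcript. For Gm10680 all 70 bases outside Apoa4 exons are given (chr9:46243460-46243529, minus strand), in capitals throughout. Gene counts do not tell whether reads crossed these junctions.
Gm15622_junction: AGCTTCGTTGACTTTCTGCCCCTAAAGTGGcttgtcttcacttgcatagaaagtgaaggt
B430119L08Rik_junction: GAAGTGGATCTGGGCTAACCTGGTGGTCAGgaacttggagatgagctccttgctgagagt
Gm15998_junction: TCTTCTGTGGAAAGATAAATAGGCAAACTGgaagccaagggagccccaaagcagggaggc
Gm10680_own: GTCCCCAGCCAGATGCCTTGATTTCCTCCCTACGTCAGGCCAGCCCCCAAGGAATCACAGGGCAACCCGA

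The methods of the study give a first-strand library type for the alignment, so reads were handled as stranded there. The strand option of the counting step is not given in the sources used here, and whether counts were assigned by strand was checked on other genes. Among all annotated genes 373 are covered completely by exons of the opposite strand. Counting without strand, featureCounts by default leaves a read over 2 genes unassigned, so these genes would have received none where the gene models used for counting were those of GENCODE vM21 used here, which is not known. Of the 122 whose sense gene had at least 10000 counts over all libraries, 102 had counts, with a median of 0.250 per 1000 counts of the sense gene and a 90th percentile of 3.32. In most of these loci, as drawn in GENCODE vM21, the covered gene thus had counts at a small share of the sense counts.

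That opposite-strand share differed between the diets. Among the 122 genes, 50 are long noncoding, and their summed counts per 1000 counts of their sense genes were 0.614, 1.42, 2.15 and 1.22 in CD fed replicates 1 to 4 and 1.12, 1.09, 0.787 and 0.709 in CD fast replicates 1 to 4. In HFD fed replicates 1 to 4 they were 0.286, 0.304, 0.340 and 0.260, and in HFD fast replicates 1 to 4 they were 0.406, 0.359, 0.480 and 0.309. Every CD library lay above every HFD library, with CD fed replicate 3 the highest of all and HFD fast replicate 3 the highest on HFD. Between 26 and 41 of the 50 genes had counts in a CD library and between 15 and 20 in an HFD library. Summed over libraries, the share was 4.54-fold higher in CD fed than in HFD fed livers (95% counting interval 4.0 to 5.16) and 2.35-fold higher in CD fast than in HFD fast livers (2.09 to 2.64). Without Gm20528, the gene with the most counts, these were 4.83-fold and 2.22-fold. Over all 122 genes the ratio was 0.881 to 1.97 in CD fed against 0.565 to 0.731 in HFD fed libraries, and 1.05 to 1.37 in CD fast against 0.851 to 1.01 in HFD fast libraries, so that the diets did not overlap within a feeding state but did across them. None of the 5 transcripts is among the 50 genes. The share over the 50 genes is set beside the results below, and its part in them was not tested.

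Gm15441 was the one transcript of the 5 that rose with HFD in fed livers. In CD fed replicates 1 to 4 it stood at 0.674, 0.575, 1.01 and 0.554 CPM, and in HFD fed replicates 1 to 4 at 4.41, 8.16, 12.8 and 1.64 CPM. All HFD fed libraries were above all CD fed libraries, with HFD fed replicate 4 the nearest to them. The difference was 3.25 on the log2 scale (SE 0.80), and without HFD fed replicate 3 it was 2.74.

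Fasting took Gm15441 higher still. CD fast replicates 1 to 4 held 123, 107, 75 and 81.3 CPM, so that each was far above every fed library of either diet. In HFD fast replicates 1 to 4 it was at 93.6, 14.5, 97.0 and 8.85 CPM. Replicates 1 and 3 were within the CD fast range, while replicate 4 fell below the highest HFD fed library and replicate 2 lay just above it. The log2 change with fasting was 7.09 (SE 0.87) in CD and 2.99 (SE 0.69) in HFD, and that with HFD in fasted livers was -0.85 (SE 0.63), with overlapping libraries. The interaction, the response to fasting on HFD less that on CD, was -4.10 (SE 1.02).

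Per kilobase of exon Gm15441 reached the level of its sense gene. In CD fast livers it averaged 57.5 ± 13.3 CPM per kb against 48.7 ± 24.5 for Txnip, and in CD fed livers 0.420 ± 0.127 against 60.8 ± 21.8 (SD, n = 4). Per 1000 Txnip counts, Gm15441 had 2.72 to 4.57 counts in CD fed and 329 to 2147 counts in CD fast libraries. On HFD it had 6.62 to 50.5 counts per 1000 in fed and 68.3 to 577 in fasted libraries. All of these ratios but that of CD fed replicate 4 were above the 90th percentile of completely covered genes, 3.32, with the other CD fed libraries the nearest to it. Those genes face sense exons over all their bases, and Gm15441 over 606 of 1676, so that percentile is not a like measure for it. Across the 16 libraries Gm15441 had a Pearson r of -0.14 with the opposite-strand share (0.45 after subtraction of the group means).

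Txnip itself did not pass the test in any contrast. It stood at 148, 128, 280 and 204 CPM in CD fed and at 57.1, 198, 228 and 126 CPM in CD fast replicates 1 to 4. In HFD fed replicates 1 to 4 it was at 197, 190, 253 and 248 CPM, and in HFD fast replicates 1 to 4 at 183, 114, 168 and 129 CPM. HFD fast libraries were all below HFD fed libraries, while the CD groups overlapped. The log2 changes were -0.32 (SE 0.33, adjusted p = 0.509, edgeR quasi-likelihood test with Benjamini-Hochberg adjustment over all genes tested) with fasting in CD and -0.58 (SE 0.33, adjusted p = 0.289) with fasting in HFD. With HFD they were 0.22 in fed livers (SE 0.33, adjusted p = 0.740) and -0.03 in fasted livers (SE 0.33, adjusted p = 0.962).

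The genes most like Gm15441 over the 16 libraries were Chrna2, a nicotinic receptor subunit, Etfdh, which passes electrons from fatty acid oxidation to the respiratory chain, and Cpt2, which imports fatty acids into mitochondria (Pearson r of log2 CPM 0.99, 0.98 and 0.98; 0.88, 0.89 and 0.86 after subtraction of the group means). Libraries of one group share their diet and feeding state, so these values are descriptions. A list of 22 textbook PPARA target genes, written with earlier results of these data known, had a median r of 0.93 with Gm15441, from 0.30 for Pdk4, a kinase that restrains glucose oxidation, to 0.98 for Cpt2. The r was above 0.5 for 19 of the 22 genes, and for 18 after subtraction of the group means. In HFD fast replicates 1 to 4 Acot1, a cytosolic acyl-CoA thioesterase, stood at 190, 121, 181 and 54.0 CPM. As for Gm15441, replicates 1 and 3 were the highest and replicate 4 the lowest. After subtraction of the group means Acot1 had r = 0.83 with Gm15441, against a median of 0.71 over the list. The lowest were 0.15 for Pdk4 and 0.21 for Cpt1a, so not all of the list followed Gm15441 library by library.

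Because this list was written with earlier results known, its counts and adjusted p are descriptions and support nothing. Of the 22 PPARA targets, 18 rose with fasting in CD (25.2% of all genes tested changed there and 13.7% rose), 9 rose with fasting in HFD (8.86% changed and 4.78% rose) and 10 rose with HFD in fed livers (7.50% changed and 3.28% rose), while none fell in these contrasts. In fasted livers 2 were lower on HFD (7.70% of all changed and 4.65% fell), and in the interaction 7 were negative (2.59% of all passed, 1.23% positive and 1.36% negative). The 7 became 4 without replicate 2 or 4 of CD fed, replicate 3 of HFD fed or replicate 4 of HFD fast, while DESeq2 called more. With 1 library left out, 3 were called with fasting in HFD without replicate 1 of either HFD group, and none with HFD in fasted livers without replicate 1 or 2 of CD fast or replicate 3 or 4 of HFD fast. The microsomal fatty acid hydroxylase Cyp4a14 rose by 4.72 with fasting in CD (adjusted p = 4.21e-06) and by 3.0 with HFD in fed livers (adjusted p = 0.000369), and its interaction was -4.06 (adjusted p = 0.00287), all on the log2 scale. Acot1 rose by 3.05 (adjusted p = 3.67e-05) and 1.63 (adjusted p = 0.00910), with an interaction of -2.58 (adjusted p = 0.0142). The bifunctional peroxisomal enzyme Ehhadh rose by 3.15 with fasting in CD (adjusted p = 1.62e-05). It was 1.02 higher with HFD in fed livers without passing the test (adjusted p = 0.0514). In fasted livers it fell with HFD (log2 change -1.21, adjusted p = 0.0250), a call lost in the 4 fits that left none of the list in that contrast. Angptl4, an inhibitor of lipoprotein lipase, Fabp1, the liver fatty acid binding protein, and Pdk4 did not pass the test in any contrast. The hormone gene Fgf21 passed it only for fasting averaged over diets (log2 change 1.56, adjusted p = 0.0110).

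**Figure D2:**
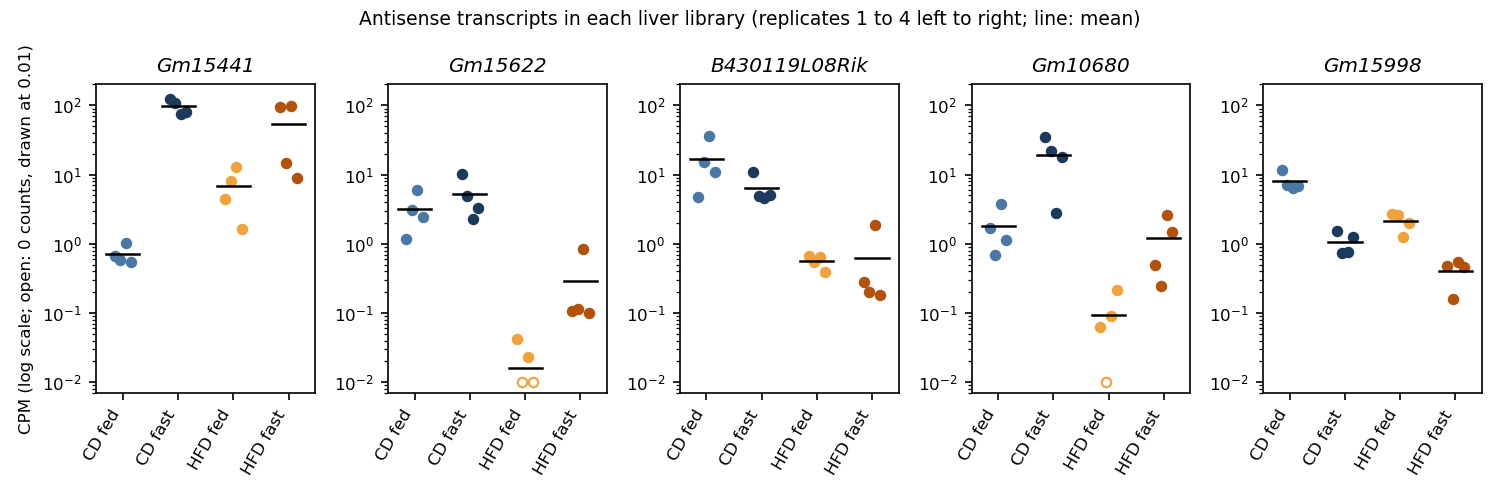
CPM of each antisense transcript on a log axis in every library of the 4 groups, with the group mean as a line; open circles mark 0 counts and are drawn at 0.01. Gm15622 and B430119L08Rik are lower in both HFD groups than in both CD groups. Gm10680 is lower on HFD within each feeding state, while its HFD fast and CD fed libraries overlap. Gm15441 rises from CD fed to CD fast, and Gm15998 falls with fasting and with HFD.

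The 5 transcripts together give the diet contrasts in which they were picked. In fed livers the edgeR fit called all 5, 1 higher and 4 lower on HFD, where 7.50% of all genes tested were called, 3.28% higher and 4.22% lower, and for each of them the libraries of one diet lay apart from those of the other (15.7% of all genes). In fasted livers it called 4, all lower, against 7.70% of all genes called and 4.65% called lower, and libraries did not overlap for the same 4 (14.0% of all genes), while Gm15441 was not called. These counts follow from how the transcripts were chosen. In fed livers the call of Gm15441 was lost under limma-voom, and those of Gm15441 and Gm10680 in 4 each of 16 fits that left out 1 library. In fasted livers the call of Gm15998 was lost in 5 of 16 such fits. The fasted calls of B430119L08Rik, Gm10680 and Gm15998 were all lost with only the groups compared in the fit.

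Gm15622, antisense to Bhmt, all but disappeared on HFD. It stood at 1.18, 3.10, 6.03 and 2.47 CPM in CD fed and at 10.3, 4.84, 2.28 and 3.26 CPM in CD fast replicates 1 to 4. In HFD fed replicates 1 to 4 it had 2, 0, 1 and 0 counts, at or under the detection floor, and in HFD fast replicates 1 to 4 it had 5, 5, 40 and 5 counts, or 0.108, 0.113, 0.839 and 0.101 CPM. All HFD libraries were below all CD libraries, and HFD fast replicate 3 was the highest of them. Summed over libraries and scaled, CD fed livers held 199-fold more than HFD fed livers (697 against 3 counts, 95% counting interval 67.7 to 966) and CD fast livers 17.1-fold more than HFD fast livers (13.0 to 22.8). The fitted difference in fed livers was -7.42 on the log2 scale (SE 1.05), and -8.36 without HFD fed replicate 1. In fasted livers the difference was -4.13 (SE 0.71), and -5.56 without HFD fast replicate 3.

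Bhmt, which remethylates homocysteine to methionine and is among the abundant mRNAs of liver, moved differently. It was at 1921, 2861, 2834 and 2593 CPM in CD fed and at 9092, 8035, 4989 and 5103 CPM in CD fast replicates 1 to 4. In HFD fed replicates 1 to 4 it was at 915, 872, 1075 and 974 CPM, and in HFD fast replicates 1 to 4 at 4681, 5375, 3118 and 6092 CPM. The HFD fed libraries were the lowest, and all fasted libraries were above all fed ones. With fasting Bhmt rose by 1.41 in CD (log2, SE 0.23, adjusted p = 0.000465) and by 2.33 in HFD (SE 0.23, adjusted p = 9.13e-05). In fed livers HFD lowered it by 1.41 (log2 change -1.41, SE 0.23, adjusted p = 0.00198), while its change in fasted livers was -0.50 and missed the threshold (SE 0.22, adjusted p = 0.168).

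The ratio of the 2 transcripts separated the diets. Per 1000 Bhmt counts Gm15622 had 0.617 to 2.13 counts in CD fed and 0.458 to 1.14 in CD fast libraries, and 0 to 0.0463 in HFD fed and 0.0166 to 0.269 in HFD fast libraries. The lowest ratio, 0 of 39823 Bhmt counts in HFD fed replicate 2, allows up to 0.0926 per 1000 (95% exact binomial limit, counting error only). Summed over libraries it was 74.6-fold higher in CD fed than in HFD fed livers (25.4 to 363) and 12.4-fold higher in CD fast than in HFD fast livers (9.40 to 16.5), beside the 4.54-fold and 2.35-fold differences of the opposite-strand share over the 50 other genes. The CD ratios of Gm15622 lay below the 90th percentile of all completely covered genes, 3.32, and CD fed replicate 3 alone was above that of the 50 long noncoding ones, 1.53. Those genes face sense exons over all their bases, and Gm15622 over 187 of 1464, so these percentiles are not a like measure for it. Its level followed the opposite-strand share over the 16 libraries with r = 0.92 (0.75 after subtraction of the group means). The part of that share in the level of Gm15622 was not tested.

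B430119L08Rik, antisense to Serpina1c, was lower on HFD in both feeding states. CD fed replicates 1 to 4 held 4.74, 15.1, 36.2 and 10.9 CPM, and CD fast replicates 1 to 4 held 10.8, 4.86, 4.57 and 5.11 CPM. On HFD it was at 0.678, 0.547, 0.640 and 0.395 CPM in fed and at 0.282, 0.204, 1.87 and 0.182 CPM in fasted replicates 1 to 4. All HFD libraries were below all CD libraries, CD fed replicate 3 was the highest of all and HFD fast replicate 3 the highest on HFD. Summed over libraries and scaled, CD held 29.7-fold more in fed (24.5 to 36.4) and 9.78-fold more in fasted livers (8.10 to 11.9). The difference was -4.89 (SE 0.73) in fed and -3.31 (SE 0.70) in fasted livers on the log2 scale, with -4.18 in fed livers without CD fed replicate 3 and -4.82 in fasted livers without HFD fast replicate 3.

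Serpina1c encodes a secreted protease inhibitor, and its copies Serpina1a and Serpina1e lie within 50 kb, so that reads can be split between them. It was at 2982, 4007, 4064 and 4114 CPM in CD fed and at 2786, 2753, 2988 and 2523 CPM in CD fast replicates 1 to 4. On HFD it was at 3916, 3472, 3706 and 2466 CPM in fed and at 2566, 2683, 2318 and 1588 CPM in fasted replicates 1 to 4. Fasted libraries were lower on average, and the groups overlapped through CD fed replicate 1 and HFD fed replicate 4. Averaged over diets it fell by 0.51 with fasting (log2, SE 0.12, adjusted p = 0.00604), and its changes with HFD were -0.16 in fed livers (SE 0.17, adjusted p = 0.626) and -0.27 in fasted livers (SE 0.17, adjusted p = 0.342). Serpina1a and Serpina1e did not pass the test in any of the 5 contrasts.

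Per 1000 Serpina1c counts B430119L08Rik had 1.59 to 8.90 counts in CD fed and 1.53 to 3.89 in CD fast libraries, against 0.158 to 0.173 for fed and 0.0760 to 0.805 for fasted libraries on HFD. The ratio was thus nearly constant in HFD fed livers. In CD fed replicates 2 and 3 and CD fast replicate 1 it was above 3.32, the 90th percentile of completely covered genes. B430119L08Rik faces sense exons over 429 of its 1994 bases, so that percentile is not a like measure for it. Summed over libraries the ratio was 26.4-fold higher in CD fed than in HFD fed (21.7 to 32.3) and 8.03-fold higher in CD fast than in HFD fast livers (6.64 to 9.77). The level of B430119L08Rik followed the opposite-strand share with r = 0.94 over the 16 libraries (0.79 after subtraction of the group means), with CD fed replicate 3 highest in both; the part of the share was not tested.

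Gm10680, antisense to Apoa4, was lower on HFD and higher in fasted livers of both diets. In CD fed replicates 1 to 4 it stood at 1.71, 0.686, 3.72 and 1.14 CPM and in CD fast replicates 1 to 4 at 34.8, 22.1, 2.82 and 17.9 CPM. HFD fed replicates 1 to 4 had 3, 0, 4 and 11 counts, and HFD fast replicates 1 to 4 were at 0.499, 0.249, 2.58 and 1.49 CPM. Within each feeding state HFD libraries lay below CD libraries, with CD fast replicate 3 just above HFD fast replicate 3. The difference with HFD was -4.21 (SE 1.04) in fed and -3.99 (SE 0.76) in fasted livers on the log2 scale. It was -5.08 in fed livers without HFD fed replicate 4 and -3.59 without CD fed replicate 3, and -4.67 in fasted livers without HFD fast replicate 3. Summed over libraries the scaled level was 18.9-fold higher in CD fed than in HFD fed (397 against 18 counts, 11.8 to 32.1) and 15-fold higher in CD fast than in HFD fast livers (13.2 to 17.3).

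Apoa4, a lipid-carrying apolipoprotein whose mRNA is known to rise in fasted and fatty liver, is the sense gene of Gm10680. It was at 826, 297, 601 and 398 CPM in CD fed and at 8093, 10954, 1937 and 7297 CPM in CD fast replicates 1 to 4. On HFD it was at 188, 147, 375 and 1522 CPM in fed and at 3049, 1253, 2055 and 4234 CPM in fasted replicates 1 to 4. CD groups did not overlap, and HFD groups overlapped through HFD fed replicate 4. Fasting in CD raised it by 3.74 (log2, SE 0.73, adjusted p = 0.00205), and in HFD its change was 2.25 and missed the threshold (SE 0.69, adjusted p = 0.0543), although it was 3.48 (adjusted p = 0.00438) without HFD fed replicate 4. With the replicate number as a block Apoa4 passed the test for fasting in HFD. Its changes with HFD were 0.07 in fed livers (SE 0.66, adjusted p = 0.965) and -1.42 in fasted livers (SE 0.67, adjusted p = 0.196).

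The ratio of Gm10680 to Apoa4 also separated the diets. Per 1000 Apoa4 counts it had 2.07 to 6.19 counts in CD fed and 1.45 to 4.30 in CD fast libraries, and 0 to 0.338 in HFD fed and 0.164 to 1.25 in HFD fast libraries. Fed and fasted libraries of 1 diet overlapped in this ratio, and the 2 diets did not, HFD fast replicate 3 being the highest on HFD. CD fed replicate 3 and CD fast replicate 1 were above 3.32. On HFD its mean was 0.181 in fed and 0.493 in fasted livers, and on CD 3.36 and 2.56. Summed over libraries it was 20.7-fold higher in CD fed than in HFD fed (12.9 to 35.3) and 5.98-fold higher in CD fast than in HFD fast livers (5.23 to 6.86). Over the 16 libraries Gm10680 and Apoa4 had r = 0.79 (0.75 after subtraction of the group means), and the level of Gm10680 had r = 0.66 with the opposite-strand share (0.24 after that subtraction). For its ratio to Apoa4 this r was 0.90 (0.44). Of the 5 transcripts Gm10680 has the smallest part of its bases, 9.97%, outside exons of its sense gene. The part of the share in its level was not tested.

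**Figure D3:**
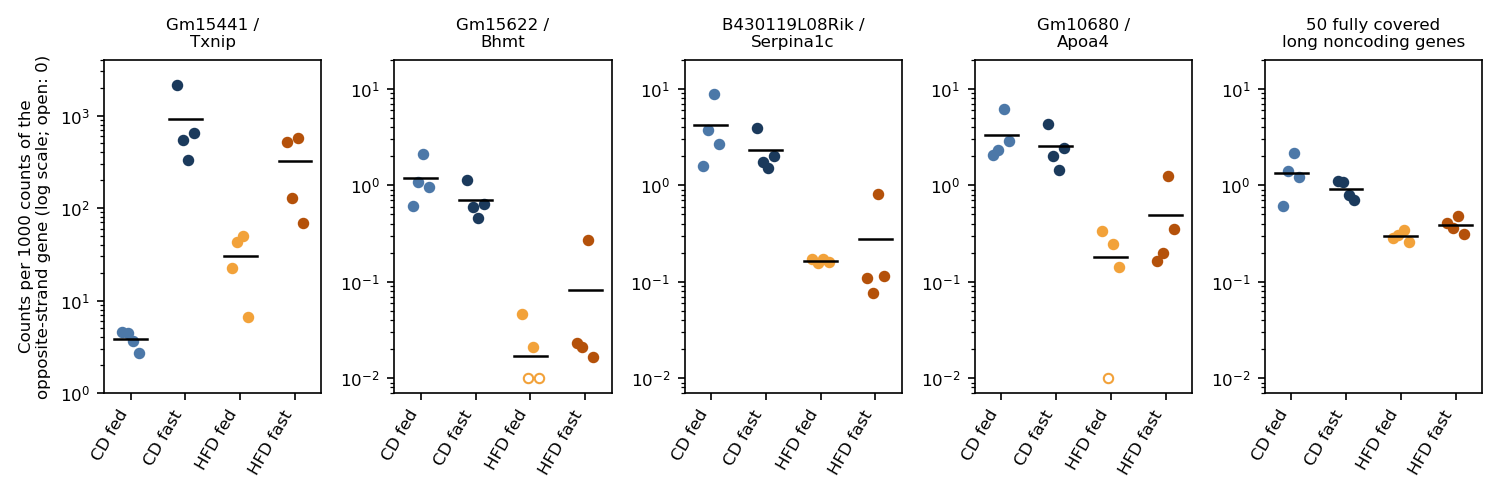
Counts of 4 antisense transcripts per 1000 counts of their sense gene in every library (log axes, the first with its own range; lines are group means, open circles 0), and the same ratio summed over 50 long noncoding genes that opposite-strand exons cover completely. Gm15622, B430119L08Rik and Gm10680 and the 50 genes are lower in all HFD than in all CD libraries, and Gm15441 alone exceeds 10, up to 2147.

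Gm15998 was lowered by both HFD and fasting. It stood at 11.6, 7.16, 6.47 and 6.79 CPM in CD fed and at 1.51, 0.742, 0.768 and 1.26 CPM in CD fast replicates 1 to 4. In HFD fed replicates 1 to 4 it was at 2.69, 2.60, 1.26 and 2.0 CPM, and in HFD fast replicates 1 to 4 at 0.477, 0.159, 0.545 and 0.464 CPM. Within each diet the fasted libraries lay below the fed, and within each feeding state the HFD libraries lay below the CD. The log2 change was -1.90 (SE 0.31) with HFD in fed and -1.36 (SE 0.36) in fasted livers, and with fasting it was -2.90 (SE 0.33) in CD and -2.36 (SE 0.35) in HFD.

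The sense gene of Gm15998 was nearly silent. Efna3 had at most 6 counts in any library and none in the fasted groups, so it was not tested, and Gm15998 outnumbered it in every library, with 7 to 634 counts. The opposite-strand share had r = 0.45 with Gm15998 over the 16 libraries and -0.25 after subtraction of the group means. Most like it were Camk1d, a calcium-dependent kinase, H13, an intramembrane protease, and Ppia, a peptidyl-prolyl isomerase (r = 0.96, 0.95 and 0.94; 0.73, 0.15 and 0.39 within groups). Camk1d averaged 137 and 61.9 CPM in CD fed and CD fast livers and 68.1 and 30.5 CPM in those on HFD, so that its group means stood in the same order as those of Gm15998.

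**Figure D4:**
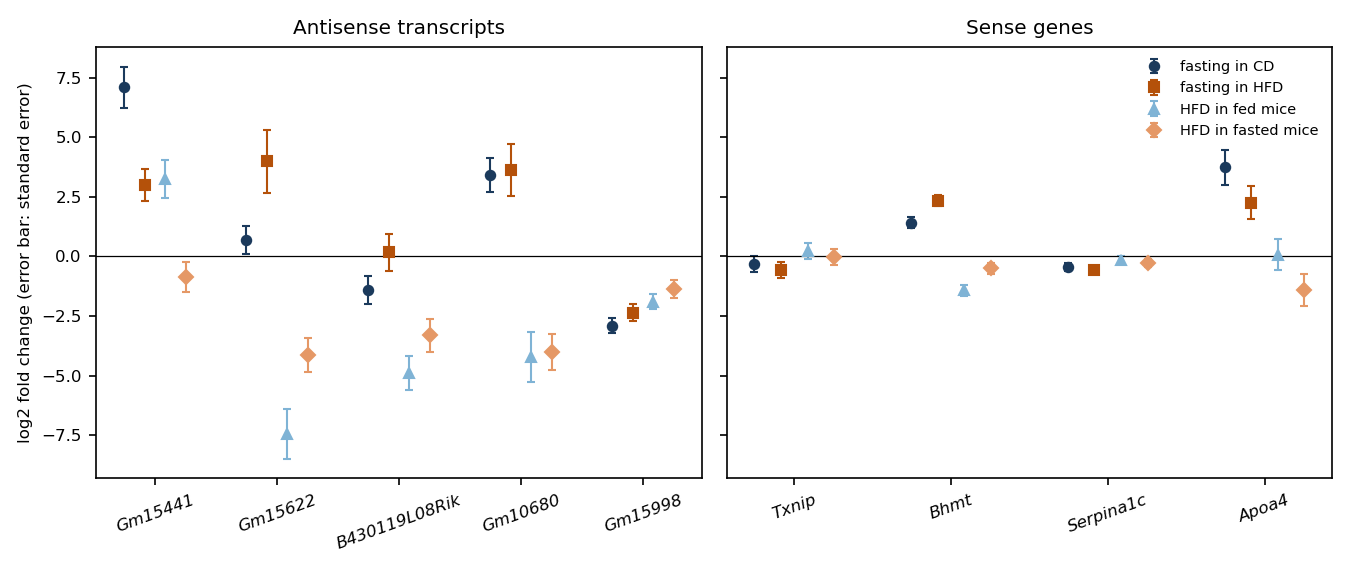
Log2 fold changes with standard errors from the edgeR fit for the 5 antisense transcripts and the 4 sense genes tested, in the 2 fasting and 2 diet contrasts. The diet changes of Gm15622, B430119L08Rik and Gm10680 lie between -7.42 and -3.31, while those of Bhmt, Serpina1c and Apoa4 lie between -1.42 and 0.07.

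The fasting contrasts were described for each transcript above, and the edgeR fit called 3 of 5 in CD, Gm15441 and Gm10680 higher and Gm15998 lower (25.2% of all genes, 13.7% higher and 11.5% lower), and the same 3 in HFD (8.86% of all genes, 4.78% higher and 4.07% lower). For Gm15441 and Gm15998 these calls follow from how they were chosen. Those of Gm10680 use the same libraries as the diet contrasts that chose it, so they are a description, and in HFD its call was lost with the replicate number as a block and in 12 of 16 fits that left out 1 library. Libraries of the 2 states did not overlap for 2 transcripts in CD (25.4% of all genes) and for 3 in HFD (16.7%). The fasting change averaged over diets weighs both diets alike. It still rests on the libraries and fitted spread that chose B430119L08Rik and Gm10680, so for these it is also a description. In that contrast 28.8% of all genes passed, 15.2% higher and 13.6% lower. The change of Gm10680 was 3.52 (log2, SE 0.64), a call that was lost under limma-voom, beside a rise of Apoa4 by 2.99 (SE 0.50, adjusted p = 0.000510). For Gm15622, which passed the filter through its CD libraries alone, the change is likewise given without a test. Averaged over diets it was 2.34 (SE 0.72) and came mostly from HFD livers, where 3 counts in fed stood against 55 in fasted libraries, 40 of them in HFD fast replicate 3. It was 3.98 in HFD (SE 1.32) and 0.69 in CD (SE 0.57), and the average was 1.63 without HFD fast replicate 3. For B430119L08Rik it was -0.61 (SE 0.49), which was not called, and -1.37 without HFD fast replicate 3.

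Levels were compared between the transcripts per kilobase of exon. In CD fed livers the order was B430119L08Rik at 8.39 ± 6.85, Gm15998 at 4.33 ± 1.30, Gm10680 at 2.59 ± 1.91, Gm15622 at 2.18 ± 1.40 and Gm15441 at 0.420 ± 0.127 CPM per kb (SD, n = 4), in which the first 4 overlapped with their neighbours within 1 SD. In CD fast livers Gm15441 at 57.5 ± 13.3 and Gm10680 at 27.6 ± 18.8 had the highest means and overlapped within 1 SD, while Gm15622 at 3.54 ± 2.45 and B430119L08Rik at 3.18 ± 1.5 could not be ordered, and Gm15998 was lowest at 0.580 ± 0.205. In HFD fed livers Gm15441 at 4.02 ± 2.88 and Gm15998 at 1.16 ± 0.359 were above the other three, of which the highest was B430119L08Rik at 0.283 ± 0.0632. In HFD fast livers Gm15441 stood at 31.9 ± 28.9 and Gm10680 at 1.72 ± 1.51, and the other three were at or below 0.318 ± 0.413.

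Gm15622 and B430119L08Rik varied together although they lie on different chromosomes. Over the 16 libraries they had r = 0.90, and 0.94 after subtraction of the group means, so that the single high libraries, CD fed replicate 3, CD fast replicate 1 and HFD fast replicate 3, were high for both. Within groups Gm10680 had r = 0.58 with Gm15622 and 0.44 with B430119L08Rik. Most like Gm15622 were 4931403E22Rik, itself antisense to Smarca2, Gm20721 and the noncoding gene Gm26809 (r = 0.98, 0.97 and 0.95). Most like B430119L08Rik were Sardhos, antisense to the sarcosine dehydrogenase gene Sardh, Gm16559, antisense to the alcohol dehydrogenase gene Adh1, and Gm26762, opposite the glycolytic gene Gpi1 (r = 0.97 for each). Sardhos and Gm26762 averaged 0.121 and 0.124 CPM, little above the floor. On HFD they were under it, Sardhos at 0.011 CPM in fed and 0.021 in fasted livers and Gm26762 at 0.011 and 0.016. On HFD 4931403E22Rik averaged 0.016 CPM in fed livers, under the floor, and 0.079 in fasted livers, just above it. The r of these genes thus rests in part on HFD libraries with hardly any counts. Of the 50 genes most like each transcript, the antisense class gave 15 for Gm15622, 17 for B430119L08Rik, 2 for Gm10680 and 0 for Gm15441 and Gm15998. The class made up 519 of the 15075 genes that passed the filter. Most like Gm10680 were the alcohol dehydrogenase Adh7, Gm37031 and the corepressor Hr (r = 0.93 for each).

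**Figure D5:**
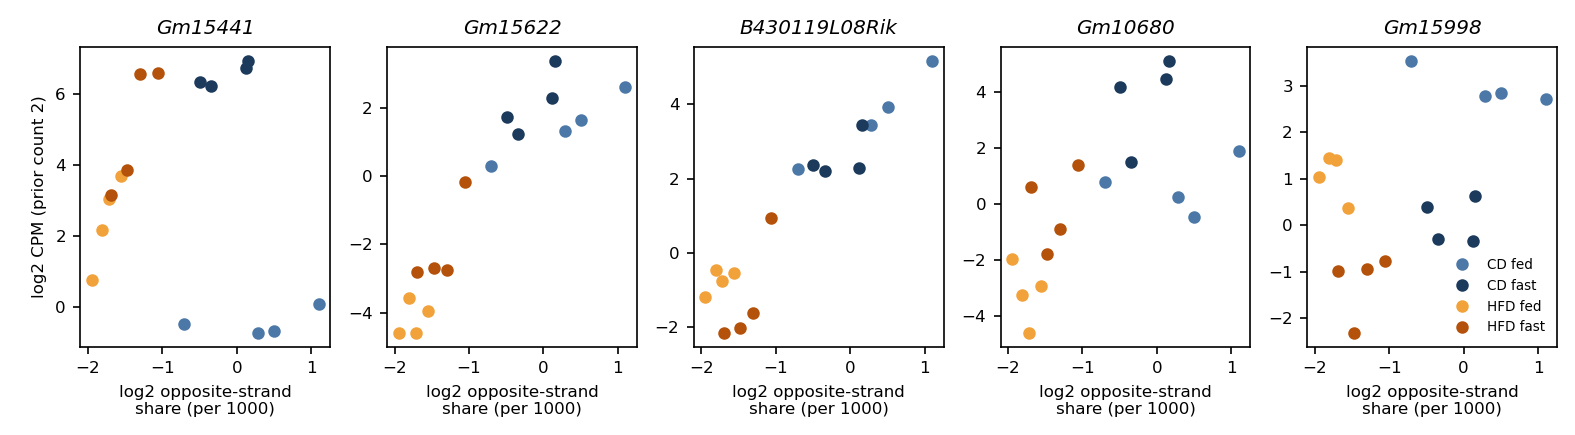
Log2 CPM (prior count 2) of each antisense transcript against the log2 opposite-strand share of the library, in counts of 50 completely covered long noncoding genes per 1000 counts of their sense genes; each point is 1 library, coloured by group. Gm15622 and B430119L08Rik rise with the share (r = 0.92 and 0.94), and Gm15441 does not (r = -0.14).

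Neighbouring genes were read as a check of the loci. Within 50 kb of the 5 transcripts, 18 other genes passed the filter, of which fasting changed 6 in CD (25.2% of all genes) and 4 in HFD (8.86%), and HFD changed 3 in fed (7.50%) and 2 in fasted livers (7.70%). Averaged over diets, fasting changed 10 of the 18 (28.8% of all genes). In the interaction the edgeR test called 0, and 1, Slc50a1, had an unadjusted p under 0.05. Near Gm10680, Apoc3, which inhibits triglyceride clearance, was lower with HFD by 0.47 in fed and by 0.57 in fasted livers (log2 changes -0.47 and -0.57, adjusted p = 0.0257 and 0.0109), and Apoa5, which promotes that clearance, fell by 0.67 in fasted livers (log2, adjusted p = 0.0309). Apoa1, the main protein of high-density lipoprotein, did not pass the test in any contrast. Zpr1, also near Gm10680, fell by 0.62 with fasting in CD (log2, adjusted p = 0.0303) and the kinase gene Sik3 by 0.34 (adjusted p = 0.0153), and Bud13 passed the test only for fasting averaged over diets (log2 change -0.33, adjusted p = 0.0311). Near Gm15622, Dmgdh, the dimethylglycine dehydrogenase that acts after Bhmt on the path from betaine, fell by 0.69 with HFD in fed livers (log2, adjusted p = 0.00628) and rose by 0.48 with fasting in HFD (adjusted p = 0.0349). Bhmt2, the second homocysteine methyltransferase of that cluster, rose by 0.33 with fasting in CD (adjusted p = 0.0193) and by 0.40 in HFD (adjusted p = 0.0200).

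Near Gm15998, the ephrin ligand gene Efna1 fell by 1.01 with HFD in fed livers (log2, adjusted p = 0.00460) and by 0.64 with fasting in CD (adjusted p = 0.0180), and the sugar transporter Slc50a1 rose by 0.55 with fasting in HFD (adjusted p = 0.0416). Dpm3 passed the test only for fasting averaged over diets (log2 change -0.27, adjusted p = 0.0228), and Adam15 in no contrast. Near Gm15441, the iron regulator Hfe2 rose by 0.50 with fasting in CD (log2, adjusted p = 0.00218) and by 0.40 in HFD (adjusted p = 0.0212), and Polr3gl, a subunit of RNA polymerase III, rose by 0.33 in CD (adjusted p = 0.0320), while Lix1l and 6330549D23Rik did not pass the test in any contrast.

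The antisense class as a whole shows how far the 5 transcripts are typical. Of its 519 tested genes, 40 changed with HFD in fed livers (7.71%, against 7.50% of all genes), 8 higher and 32 lower, and 36 in fasted livers (6.94%, against 7.70%), 12 higher and 24 lower. Of all genes tested 3.28% were higher and 4.22% lower in fed livers, and 3.05% and 4.65% in fasted livers. Without the 5 transcripts the class had 35 calls in fed livers, 7 higher and 28 lower. In fasted livers it had 32, 12 higher and 20 lower. Its median level was -0.63 log2 CPM against 3.37 over all genes. Its median absolute log2 change with HFD was 0.28 against 0.17 in fed and 0.26 against 0.19 in fasted livers. Like shares called thus come from unlike levels. With fasting 126 of the 519 changed in CD (24.3%, against 25.2%), 102 higher and 24 lower, and 58 in HFD (11.2%, against 8.86%), 53 higher and 5 lower. The 58 became 25 without HFD fed replicate 1. They became 33 to 37 without replicate 2 or 3 of HFD fed or replicate 1 or 3 of HFD fast. The median log2 change of the class was 0.20 and 0.25 with fasting in CD and HFD, beside -0.01 and 0.01 over all genes, and 0.01 and 0.02 with HFD in fed and fasted livers. In the interaction 6 were called (1.16%, against 2.59%), and more under DESeq2. Only 2 were called without CD fed replicate 1, HFD fed replicate 3 or HFD fast replicate 3. The class summed to 1178 to 1403 CPM in CD fed and 1407 to 1728 CPM in CD fast libraries, and on HFD to 1206 to 1277 CPM in fed and 1485 to 1625 CPM in fasted libraries, so its summed level overlapped between the diets in both feeding states.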

How the data were processed

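Liver RNA of 16 mice (4 libraries in each of 4 groups, assigned and numbered from the labels) was enriched for poly(A) RNA and prepared with NEBNext Ultra II. The authors deposited 1 table of whole, raw counts per Ensembl gene. The authors aligned paired 100-base reads to GRCm38 with TopHat2 2.0.11, set to a first-strand library type and with annotation from Illumina iGenomes, and counted with featureCounts (CASAVA 1.8.4 is also listed in the submitters' processing notes). The annotation release and the strand option of featureCounts are not given in the sources used here.

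The labels give 1 library per liver sample, so p-values measure the spread between these samples. The members, lists and alternatives were chosen with earlier results of these data known. The opposite-strand share was added after the data were seen. Genes passing filterByExpr (15075) were scaled by TMM and fitted with edgeR 4.0.16 (R 4.3.3) over 16 libraries with 1 coefficient per group (12 residual degrees of freedom). Quasi-likelihood tests were adjusted by Benjamini-Hochberg, with a threshold of 0.05, and printed adjusted p come from it except where another tool is named. SE is the log2 change divided by the square root of F. Log2 CPM used a prior count of 2. Named were the 5 transcripts, sense and neighbouring genes that passed the filter, the PPARA list and the 3 genes of highest r with each transcript. On counts simulated for HFD in fed mice (14951 genes), edgeR recovered 54%, 76%, 98% and 100% of changes of 1.5, 2, 4 and 8-fold, with 5.20% false calls. The changes, 50 of each size, were planted only in genes above a minimum mean count, so these rates do not cover genes of lower counts. Alternatives were DESeq2 1.42.0, limma-voom (limma 3.58.1), DESeq2 size factors, library totals, other filters, a block for the replicate number, fits of only the groups compared, Spearman likeness, a prior count of 0.5, exon overlap as the class definition and omission of each library. Counting intervals cover counting error only. GENCODE vM21 matched 45143 of 46078 genes.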

Additional observations from a re-analysis of the deposited data

Results flagged for a closer look

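Among 36 groups of 4 libraries (5 transcripts and 4 sense genes in 4 groups), 4 held 1 library whose gap to the nearest other was, as a share of the group's range of log2 CPM, above Dixon's 95% critical value. Chance alone gives about 1 in 20. They were HFD fast replicate 3 for Gm15622 (0.954, high), CD fast replicate 1 for B430119L08Rik (0.869, high), HFD fast replicate 2 for Gm15998 (0.863, low) and CD fed replicate 1 for Serpina1c (0.919, low). In 2 of the 4, HFD fast replicate 3 and CD fast replicate 1, the library also had the highest opposite-strand share of its group (0.480 and 1.12 per 1000).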

How the results depend on the processing

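No estimate for a transcript or sense gene that passed the threshold changed sign under any alternative run. The replicate numbers showed no general pairing of the samples (same-numbered libraries of 2 groups had r from -0.24 to 0.66, above 0.1 in 7 of 16 pairs). The r of 0.66 was that of HFD fed and HFD fast replicate 4, and the next highest was 0.21 (CD fed and HFD fed replicate 3). What the replicate 4 libraries on HFD share was not tested. With the replicate block Gm10680 rose by 3.52 with fasting in HFD (adjusted p = 0.0751), Apoa4 by 2.47 (adjusted p = 0.0377) and Serpina1c fell by 0.57 (adjusted p = 0.0462), which moved these 3 calls and no other of a transcript or sense gene, and the antisense counts under the replicate block were 124, 59, 38, 40 and 5. Under limma-voom 8 calls were lost, among them Gm10680 for fasting averaged over diets (adjusted p = 0.0536) and Gm15441 with HFD in fed livers. Library totals moved the median of all genes with HFD in fasted livers to 0.17. Counts of antisense genes that moved by over 1.5 times were 62 (no filter) and 21 (stricter filter) with HFD in fed livers, 58 (DESeq2), 55 (library totals) and 5 (only the groups compared) in fasted livers, and 15 (DESeq2) for the interaction. Of PPARA targets 3 were called with fasting in HFD with only the groups compared; in fasted livers 5 (DESeq2), 1 (limma-voom) and 0 (only the groups compared) differed with HFD; and 14 (DESeq2) had an interaction. With each library left out, antisense calls ranged from 25 to 61 with fasting in HFD (lowest without HFD fed replicate 1; 33 to 37 without replicate 2 or 3 of HFD fed and without replicate 1 or 3 of HFD fast), from 20 to 43 with HFD in fasted livers (lowest without HFD fast replicate 4) and from 2 to 7 for the interaction. The interaction lowest of 2 came without CD fed replicate 1, HFD fed replicate 3 or HFD fast replicate 3. PPARA calls ranged from 3 to 13, from 0 to 4 and from 4 to 9 in the same contrasts. With fasting in HFD they were 3 without replicate 1 of either HFD group, 4 without HFD fed replicate 2 and 5 without HFD fast replicate 3; with HFD in fasted livers they were 0 without replicate 1 or 2 of CD fast and without replicate 3 or 4 of HFD fast. The interaction of Gm15441 was above 0.05 in 13 of 16 such fits, Gm10680 with fasting in HFD in 12, Gm15998 with HFD in fasted livers in 5, and Gm15441 and Gm10680 with HFD in fed livers in 4 each. With only the groups compared B430119L08Rik, Gm10680 and Gm15998 were not called for HFD in fasted livers. The cause of these shifts was not tested. Depth limits Gm15622 and Gm10680 on HFD, where single libraries held 0 counts.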
